A study of Mus musculus with 2 samples.

Results

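The genes described here encode the subunits, assembly chaperones and activators of the proteasome. They were found by symbol, as every gene named PSM with a class letter from A to G and a number, and pseudogenes were left out. The table of 57011 labels held 48 such genes, and 13811 genes and loci in it reached at least 1 FPKM in a library. FPKM counts fragments per kilobase of transcript, scaled to the mapped total, so levels of different genes are given per length. Of the 48 genes, 34 had a label of their own and reached 1 FPKM, 6 were reported only in a locus merged with a neighbouring gene, and 8 were listed at 0 in both libraries.

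RNA came from 2 patient-derived xenografts, human tumors that are kept growing in mice, each a gastroenteropancreatic neuroendocrine tumor passaged in athymic nude (Foxn1nu) hosts. The primary group was a primary tumor carried at the flank of the mouse, and the metastatic group a metastatic tumor carried inside the peritoneal cavity. Neither group carried a treatment, the age of the hosts is not given, and the tumors of both groups were dissociated before RNA was extracted from the cell pellets. With 1 library per group, the origin of the tumor, the site of the graft and the library itself cannot be told apart. No difference could be checked against replicates, and none was tested. Both titles begin with 1 common code, but it is not stated if the tumors share a donor. Wherever a pair of values is given, the primary library comes first.

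The proteasome is the large protease that degrades proteins tagged with ubiquitin. Its core particle is a stack of rings, with outer rings of alpha subunits that gate the channel and inner rings of beta subunits, some of which carry the proteolytic sites. A regulatory particle sits on the core. Its base holds a ring of ATPases that unfold the substrate, together with large scaffold subunits and ubiquitin receptors, and its lid removes the ubiquitin chain. Dedicated chaperones build both parts, and secretory and dividing cells depend on the complex for protein quality control and for the turnover of cyclins.

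Proteasome genes stood higher in the metastatic xenograft in nearly every class. Of the 34 counted genes, 33 had a log2 ratio above 0, where the log2 ratio is log2((metastatic FPKM + 1)/(primary FPKM + 1)), and 1 had a log2 ratio below 0. Over all 13811 genes and loci the shares above and below 0 were 51.8% and 47.7%. The median log2 ratio of the 34 genes was 0.80 (95% binomial interval of the median across genes, which are not replicates, 0.57 to 0.99), beside a median of 0.03 over all genes and loci. A difference of at least 2-fold in the direction of the metastatic tumor was found for 10 of 34 genes, or 29.4%, against 9.22% of all genes and loci. None of the 34 genes was at least 2-fold lower, against 9.35%. At 1.5-fold, 23 of 34 were higher, or 67.6%, against 21.8%, and 0 were lower, against 20% of all. At 4-fold, 0 of 34 were higher, against 1.19%, and 0 lower, against 1.88%. In bulk tissue, more cells of a type and more RNA per cell cannot be told apart.

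**Figure D1:**
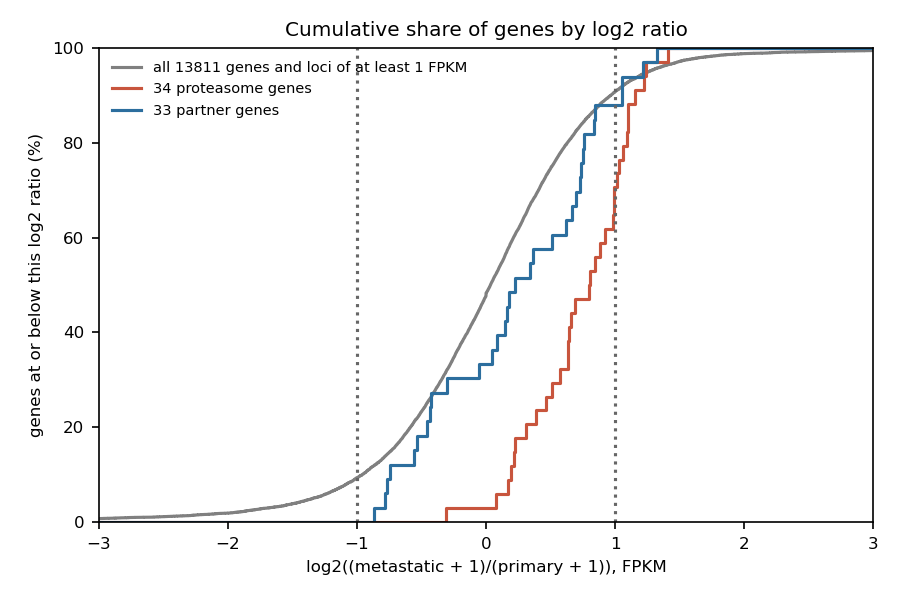
Cumulative share of genes (percent) at or below each log2 ratio of metastatic over primary, for all 13811 genes and loci of at least 1 FPKM (grey), the 34 proteasome genes (red) and 33 genes that work with the proteasome (blue), with dotted lines at 2-fold. Over most of its range the proteasome curve lies to the right of the grey curve, with medians of 0.80 and 0.03.

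The scale of the columns bears on these counts. The columns summed to 784987 FPKM in the primary library against 885319 in the metastatic one, and the total that each was divided by is not given in the sources used here. With both columns rescaled to the same sum, the median log2 ratio of the proteasome genes was 0.64, beside -0.12 over all genes and loci. On this scale 32 of 34 genes stayed above 0. The share of all genes and loci above 0 was not computed for it, but their median lay below 0. The number at least 2-fold higher was then 3, against 7.24% of all genes and loci, and these were PSMD1, PSMA7 and PSMD2. None was at least 2-fold lower, against 12.7% of all. Rescaling by the median ratio gave 8 genes at least 2-fold higher, against 8.59%, and 0 lower, against 9.71%. Rescaling by the 75th percentile gave 13 higher, against 10.2%, and 0 lower, against 8.83%. The share of the column does not depend on the scale, but it compares the libraries in the same way as rescaling to the same sum. The 34 genes held 0.512% of all FPKM in the primary library against 0.819% in the metastatic one, a ratio of 1.60. With merged loci counted as members, the shares were 0.634% and 0.955%.

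Level and transcript length also moved with this result. Genes of higher level stood higher in the metastatic library in general, since the 4576 genes and loci whose mean FPKM lay within the range of the proteasome genes, 20.4 to 439, had a median log2 ratio of 0.21, with 10.4% at least 2-fold higher. Genes with short transcripts did so too. Features matched by symbol to a mouse transcript were put in 4 classes of about equal size by length. The class of shortest transcripts had a median log2 ratio of 0.20, with 12.6% at least 2-fold higher, and the class of longest had -0.17, with 3.15%. Of the proteasome genes, 19 fell in the shortest class, with a median of 0.98, 12 in the next, with a median of 0.64, and 3 in the one after that, with a median of 0.19. Across the 34 genes, which share both libraries, Spearman's rho between mouse transcript length and log2 ratio was -0.28. The part of level and length in the result was not tested.

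The alpha ring, which forms the gate of the core particle, was among the most abundant classes. Its 4 counted genes had a median level of 240 FPKM in the primary library against 469 in the metastatic one, and a median log2 ratio of 1.07 (range across genes 0.46 to 1.24). PSMA7 stood at 187 FPKM in the primary library against 444 in the metastatic one, a log2 ratio of 1.24. PSMA5 stood at 229 and 495 FPKM, and PSMA4 at 262 and 537. These 3 of the 4 were at least 2-fold higher, against 9.22% of all genes and loci, although PSMA5 and PSMA4 were not after rescaling to the same sum (0.93 and 0.86). PSMA3 differed least, at 251 and 347 FPKM with a log2 ratio of 0.46. In the primary library PSMA3 and PSMA4 were nearly level, with a PSMA4 to PSMA3 ratio of 1.04, and in the metastatic library the ratio was 1.55.

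The other 3 alpha subunits were reported only in merged loci, whose value cannot be split between the genes. The locus of PSMA1 and COPB1, a coat protein gene of Golgi vesicles, stood at 188 FPKM in the primary library against 293 in the metastatic one. That of PSMA6 and PRORP stood at 299 and 386 FPKM. The locus of PSMA2 and C7orf25 was nearly level, at 256 and 259 FPKM, a log2 ratio of 0.01 that turned to -0.16 after rescaling to the same sum and to -0.03 by the median ratio. All 3 loci had smaller ratios than PSMA4, PSMA5 and PSMA7. With merged loci counted as members, the alpha ring median was 0.64 in place of 1.07, and the median over all members was 0.67.

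Of the standard beta ring, 6 genes were counted, with a median log2 ratio of 0.81 (95% interval across genes 0.38 to 1.09, their full range). The subunits with proteolytic sites differed by unequal amounts. PSMB7, which carries the trypsin-like site, stood at 172 FPKM in the primary library against 370 in the metastatic one, a log2 ratio of 1.09. PSMB6, with the caspase-like site, stood at 74.4 and 142 FPKM, a log2 ratio of 0.93. PSMB5, with the chymotrypsin-like site that proteasome inhibitor drugs mainly target, stood at 178 and 232 FPKM, a log2 ratio of 0.38. Within the primary library PSMB5 and PSMB7 were about level, with a ratio of 1.03, while in the metastatic library PSMB5 was at 0.629 of PSMB7. The ratio of PSMB5 to PSMB6 was 2.39 in the primary against 1.63 in the metastatic library. These ratios are taken within a library, so rescaling a column leaves them as they are.

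The beta subunits without a proteolytic site were also higher in the metastatic library. PSMB4 had the highest level of all 34 genes in the primary tumor, at 336 FPKM, and stood at 542 in the metastatic tumor. PSMB1 followed it at 284 and 443 FPKM. PSMB2 stood at 86.6 and 173 FPKM, a log2 ratio of 0.99, just under the 2-fold threshold. PSMB3, which every core particle needs, was listed at 0 in both libraries. A 0 in this table can therefore be a failed estimate and does not show that a gene was silent.

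**Figure D2:**
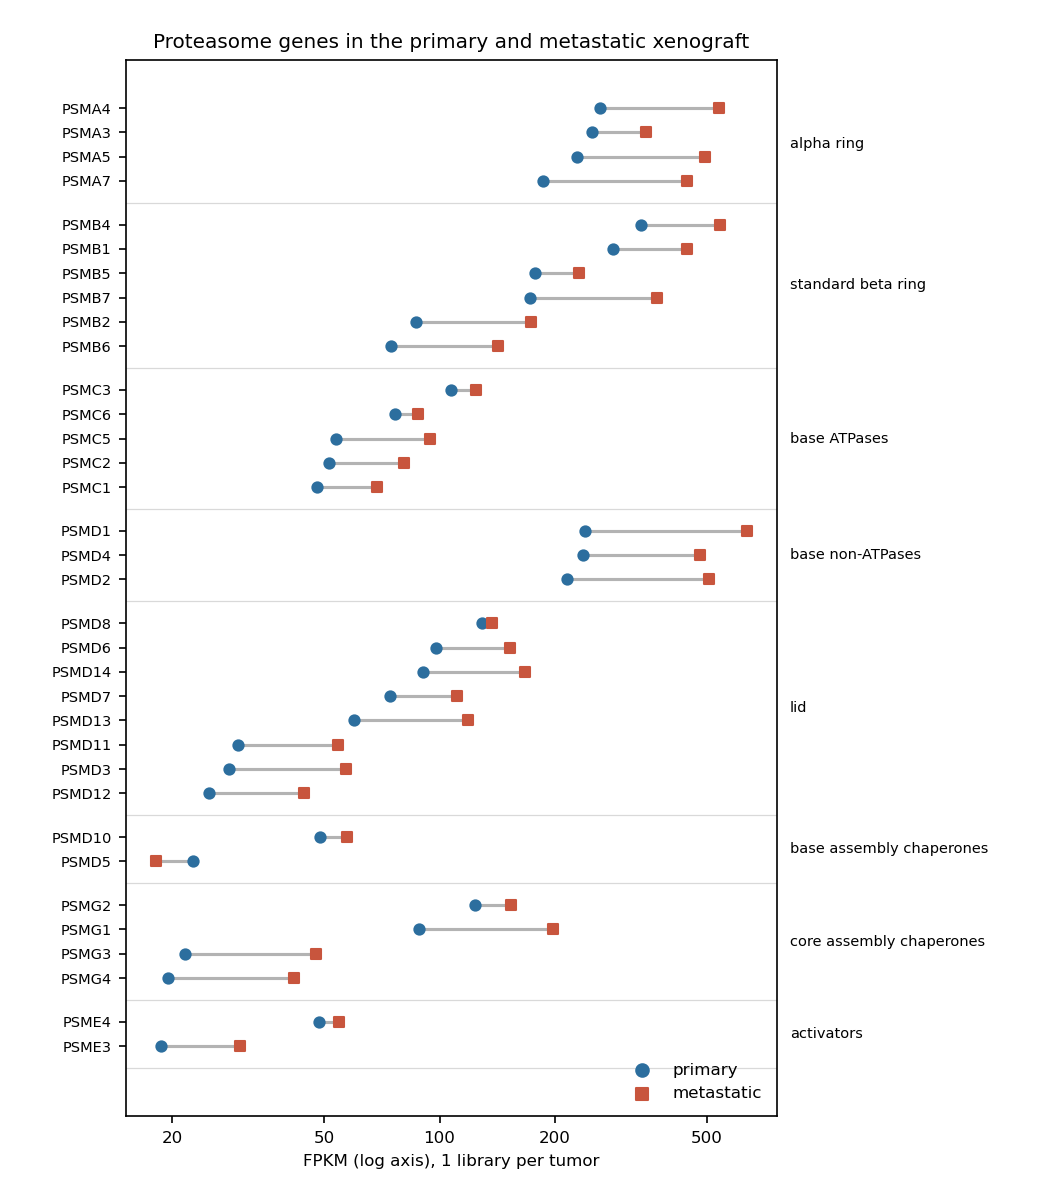
FPKM of the 34 counted proteasome genes on a log axis, grouped by structural class, with the primary library as blue circles and the metastatic library as red squares, 1 library each. The metastatic square lies to the right of the circle for every gene but PSMD5, and the base non-ATPases PSMD1, PSMD2 and PSMD4 lie far above the base ATPases in both libraries.

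The base of the regulatory particle split by subunit type. Its 3 non-ATPase genes of the symbol pattern had the highest class median, 1.23 (range across genes 1.01 to 1.41). All 3 were at least 2-fold higher in the metastatic library, against 9.22% of all genes and loci. ADRM1, a ubiquitin receptor of the base outside the pattern, is not in this class and stood at 68.6 and 174 FPKM. PSMD1, a scaffold subunit, stood at 240 FPKM in the primary library against 639 in the metastatic one, a log2 ratio of 1.41 that was the largest of the 34 genes. It ranked 5 by level among them in the primary library and 1 in the metastatic library. PSMD2, a scaffold that also docks ubiquitin-like domains, stood at 215 and 505 FPKM. PSMD4, a ubiquitin receptor, stood at 238 and 481 FPKM, with a log2 ratio of 1.01 that was 0.84 after rescaling to the same sum.

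The base ATPases were lower in level and closer between the libraries. Their 5 counted genes had a median of 53.5 FPKM in the primary library against 87.6 in the metastatic one. The median log2 ratio was 0.51 (range across genes 0.19 to 0.80), and 0 of 5 were at least 2-fold higher, against 9.22% of all genes and loci. PSMC5 stood at 53.5 and 94.2 FPKM, and PSMC2 at 51.5 and 80.6. PSMC1 stood at 47.9 and 68.6 FPKM. PSMC3 and PSMC6 were the closest pair, at 107 and 125 FPKM and at 76.7 and 87.6 FPKM. After rescaling to the same sum their log2 ratios were 0.05 and 0.02. PSMC4, the remaining ATPase of the ring, was listed at 0 in both libraries.

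The ATPase ring and the scaffold subunits belong to 1 particle, yet their transcripts were far from equal. The median level of the 3 non-ATPase genes of the symbol pattern was 4.44 times that of the ATPases in the primary against 5.76 times in the metastatic library. ADRM1, outside the pattern, was closer to the ATPases. At 68.6 FPKM it lay within their range of 47.9 to 107 in the primary library. In the metastatic library it stood at 174 FPKM, above their highest level of 125. PSMD1 stood at 5.001 times the level of PSMC1 in the primary and at 9.30 times in the metastatic library. The 3 non-ATPase genes held 17.2% of the summed FPKM of the 34 genes in the primary against 22.4% in the metastatic library, while the 5 ATPases held 8.39% and 6.29%. In the same order, the 4 counted alpha genes held 23.1% and 25.1%, the counted beta genes 28.2% and 26.2%, and lid genes 13.3% and 11.6%. Merged loci are left out of these shares. They hold 3 of the 7 alpha genes, at 188, 256 and 299 FPKM in the primary and 293, 259 and 386 in the metastatic library. The share of the full alpha ring, and its direction between the libraries, is therefore not given by these values.

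**Figure D3:**
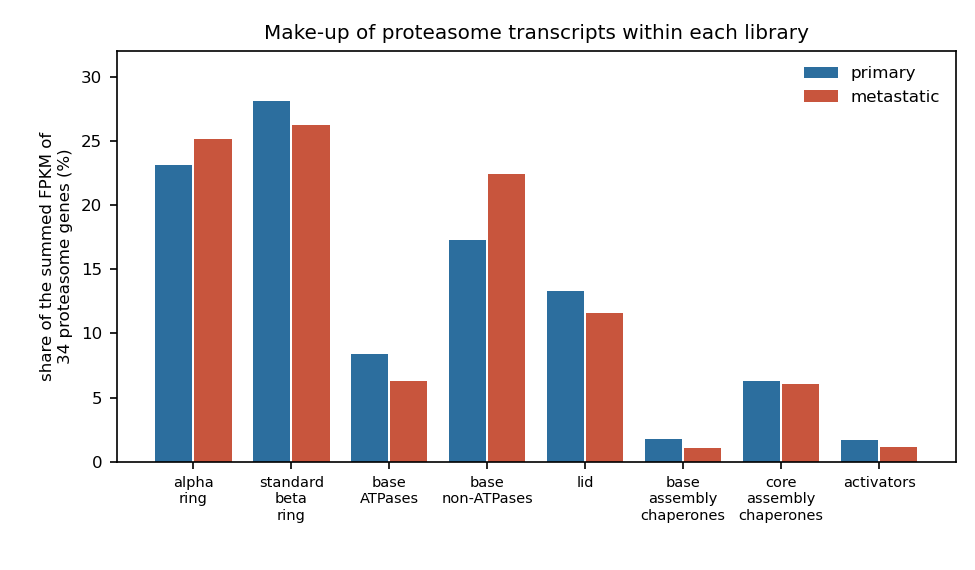
Share (percent) of the summed FPKM of the 34 counted proteasome genes held by each structural class within the primary (blue) and the metastatic (red) library, 1 library each. The 3 base non-ATPases of the symbol pattern take 17.2% and 22.4% and the base ATPases 8.39% and 6.29%. These shares do not depend on the scale of a column. Merged loci, which hold 3 of the 7 alpha genes, are left out.

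The lid holds the deubiquitinase of the particle. All 8 lid genes of the symbol pattern were counted, and they had a median log2 ratio of 0.82 (95% interval across genes 0.08 to 0.99, their full range). Of the 8, 0 were at least 2-fold higher, against 9.22% of all genes and loci, although PSMD3 and PSMD13 came close. PSMD3 stood at 28.1 FPKM in the primary library against 56.8 in the metastatic one, a ratio of 2.02 before the pseudocount and a log2 ratio of 0.99 with it. PSMD13 stood at 59.7 and 119 FPKM. PSMD14, the metalloprotease that cuts off the ubiquitin chain, stood at 90.5 and 167 FPKM, a log2 ratio of 0.88. Smaller log2 ratios, from 0.57 to 0.85, belonged to PSMD11, PSMD12, PSMD6 and PSMD7. PSMD11 stood at 29.8 and 54.3 FPKM, PSMD12 at 24.96 and 44.3, and PSMD6 at 97.8 and 152. PSMD7, the partner of PSMD14, stood at 74.4 and 111 FPKM.

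PSMD8 had the smallest log2 ratio of the lid genes. It had the highest level of the lid genes in the primary library, at 129 FPKM, and stood at 137 in the metastatic library. Its log2 ratio of 0.08 turned to -0.09 after rescaling to the same sum, the only one of the 34 to change sign under any of the 3 scalings. In the metastatic library PSMD14 and PSMD6 stood above it.

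**Figure D4:**
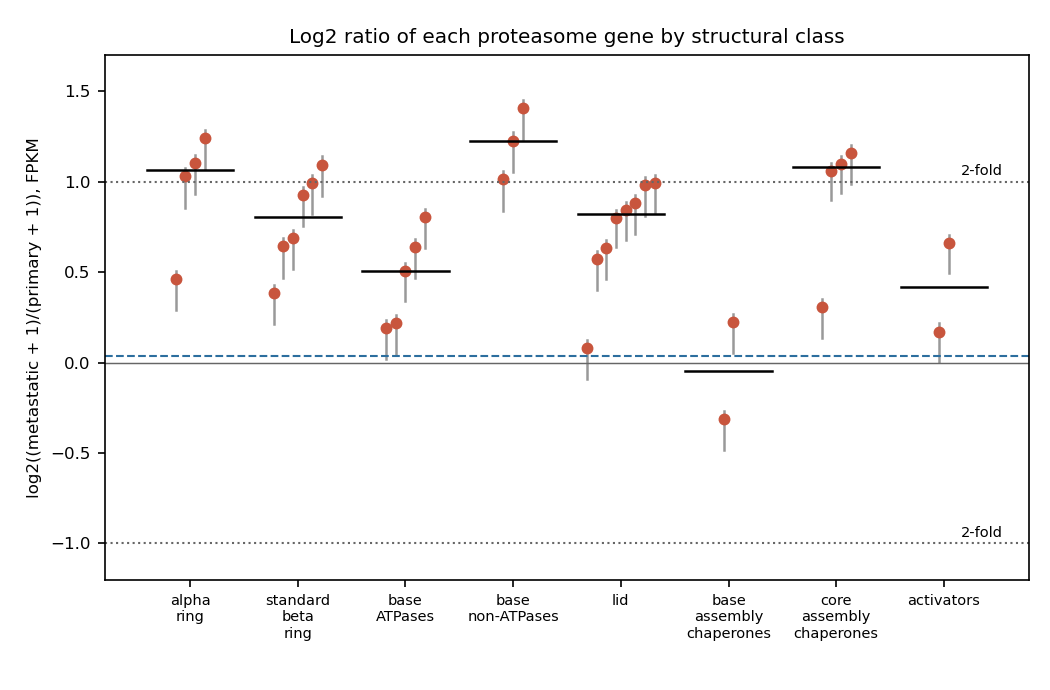
Log2 ratio of metastatic over primary for each of the 34 counted genes by structural class (red points), with the class median as a black bar, the range over the unscaled values and 3 scalings as a grey line, 2-fold as dotted lines and the median of all genes and loci, 0.03, as a dashed line. The base non-ATPases have the highest median, the medians of the ATPases and activators lie below those of the alpha, beta and lid genes, and PSMD5 is the only gene below 0 without rescaling.

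Chaperones that assemble the core and those that assemble the base had different values. Of the 4 counted chaperones of the core particle, 3 were at least 2-fold higher in the metastatic library, against 9.22% of all genes and loci. The median log2 ratio of the 4 was 1.08 (range across genes 0.31 to 1.16). PSMG1 stood at 88.5 FPKM in the primary library against 199 in the metastatic one. Its dimer partner PSMG2 stood at 124 and 154 FPKM, so the PSMG1 to PSMG2 ratio was 0.714 in the primary against 1.29 in the metastatic library. The other dimer kept its proportion. PSMG3 stood at 21.6 and 47.4 FPKM and PSMG4 at 19.5 and 41.7, with ratios of PSMG3 to PSMG4 of 1.11 and 1.14. After rescaling to the same sum none of these 3 reached 2-fold, with log2 ratios of 0.99 for PSMG1, 0.94 for PSMG3 and 0.90 for PSMG4.

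Of the base chaperones in the symbol pattern, the 2 counted had small log2 ratios of opposite sign, with a median of -0.04. PSMD5 stood at 22.7 FPKM in the primary library against 18.1 in the metastatic one, a log2 ratio of -0.31, and was the only counted gene lower in the metastatic library without rescaling. PSMD10, also known as gankyrin, an oncoprotein that binds the retinoblastoma protein, stood at 48.8 and 57.2 FPKM, a log2 ratio of 0.22. The locus that merges PSMD9 with WDR66 stood at 54.6 and 91.6 FPKM, a larger log2 ratio of 0.74. With that locus counted, the class median was 0.22 in place of -0.04.

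Activators are alternative caps that open the core without ATP. PSME3, a nuclear activator, stood at 18.7 FPKM in the primary library against 30.1 in the metastatic one, a log2 ratio of 0.66, and had the lowest level of the 34 genes in the primary tumor. PSME4, a large single-chain activator, stood at 48.4 and 54.7 FPKM, with a log2 ratio of 0.17 that was 0.0017 after rescaling to the same sum. PSME1 and PSME2, whose products form the interferon-induced activator, were listed at 0 in both libraries. The locus of PSMF1, which encodes a protein that inhibits the core in vitro, and C20orf202 stood at 129 and 139 FPKM, a log2 ratio of 0.12 that turned to -0.06 after rescaling to the same sum.

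The immunoproteasome could be described only through 1 merged locus. In this form of the particle, which interferon induces and which shapes the peptides shown on MHC class I, PSMB8, PSMB9 and PSMB10 take the place of PSMB5, PSMB6 and PSMB7. PSMB8 and PSMB9 were listed at 0 in both libraries, in all 8 rows of each label, so no ratio to their standard counterparts is given. PSMB10 was merged with CTRL, a chymotrypsin-like protease gene of the exocrine pancreas, and the locus stood at 30.4 FPKM in the primary library against 40.1 in the metastatic one. The ratio of this locus to PSMB7 was 0.176 in the primary against 0.108 in the metastatic library, and the part of PSMB10 in it is unknown. PSMB11 and PSMA8, core subunits of the thymus and of the testis, were listed at 0.

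Symbols at 0 were mostly those that the table repeats. PSMB8 and PSMB9 had 8 rows each, and PSMB3, PSMC4, PSME1 and PSME2 had 2 each, while PSMB11 and PSMA8 had 1. PSMB1 also had 2 rows, of which 1 was at 0. Among symbols shared with mouse protein-coding genes, 66.3% of 771 with several rows were at 0 in both libraries, against 10.3% of 13646 with 1 row. Pseudogenes of these families took few fragments, since of 32 such labels 17 were at 0 in both libraries and the highest, PSME2P2, stood at 1.10 FPKM in the primary library against 1.44 in the metastatic one.

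Genes of the interferon response and of peptide loading, which accompany the immunoproteasome, went both ways. Of 12 genes on this list 8 were counted, with 2 at least 2-fold higher and 1 lower, against 9.22% and 9.35% of all genes and loci. The median log2 ratio was 0.08, or -0.07 after rescaling to the same sum. The higher ones were NLRC5, a transactivator of MHC class I genes, at 1.49 and 7.54 FPKM, and the guanylate-binding protein gene GBP1, at 0.126 and 2.56. GBP1 passed the 1 FPKM floor only through the metastatic library, so its place in the count rests in part on that filter. The lower one was UBE2L6, which conjugates ISG15, at 6.26 and 1.62 FPKM. IRF1, which drives PSMB9 and TAP1, stood at 2.62 and 2.53 FPKM. TAP1 and TAP2, the peptide transporter genes, were listed at 0 as PSMB8 and PSMB9 were.

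Among the counted genes the order of levels was largely kept between the libraries. Over the 34 genes, which share both libraries, Spearman's rho between the levels was 0.95 and Pearson's r of log2 FPKM was 0.96. Levels spanned 18.0-fold in the primary, from PSME3 to PSMB4, and 35.3-fold in the metastatic library, from PSMD5 to PSMD1. The 4 counted alpha genes and the 3 base non-ATPases of the symbol pattern were the most even classes in the primary library. Their highest level was 1.40 and 1.11 times the lowest. This leaves out ADRM1 of the base, which at 68.6 FPKM stood far below those 3 genes. Lid genes, which also occur in equal copies in the particle, spanned 5.19-fold in the primary and 3.78-fold in the metastatic library.

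Genes that work with the proteasome but fall outside the symbol pattern were taken from a list of 35, of which 33 were counted. Of the 33, 4 were at least 2-fold higher and 0 lower in the metastatic library, against 9.22% and 9.35% of all genes and loci. After rescaling to the same sum, 2 were higher and 1 lower, against 7.24% and 12.7%. The median log2 ratio of the 33 was 0.22, or 0.07 after rescaling. Both subunits with other names were higher. ADRM1, a ubiquitin receptor of the base, stood at 68.6 FPKM in the primary library against 174 in the metastatic one, a log2 ratio of 1.33, and SEM1, a small lid subunit, at 195 and 324 FPKM. With PSMD2 and PSMD4, ADRM1 makes up the ubiquitin receptors of the particle, and all of them were at least 2-fold higher without rescaling. POMP, the maturation chaperone of the beta rings, stood at 64.5 and 135 FPKM, and TXNL1, a thioredoxin bound to the particle, at 83.9 and 197. After rescaling to the same sum ADRM1 and TXNL1 were still at least 2-fold higher, with log2 ratios of 1.16 and 1.05, and POMP, at 0.89, was not.

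Enzymes that trim or deliver the substrate were mostly higher by less than 2-fold. The deubiquitinases USP14 and UCHL5, which bind the base, stood at 49.8 and 90.1 FPKM and at 59.0 and 91.3. VCP, the ATPase that extracts ubiquitinated proteins from membranes and complexes, stood at 132 FPKM in the primary library against 275 in the metastatic one, a log2 ratio of 1.05 that was 0.88 after rescaling to the same sum. All 5 counted shuttle receptors had a log2 ratio above 0, against 51.8% of all genes and loci, with a median of 0.36. UBQLN1 turned to -0.01 after rescaling to the same sum. Genes for ubiquitin and its activation went both ways, with 3 of 6 above 0 and 3 below, near the 51.8% and 47.7% of all genes and loci. UBB, which encodes a chain of ubiquitin units, stood at 516 and 869 FPKM.

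Regulators of transcription were lower or nearly level where they had a label of their own. NFE2L1, which activates proteasome genes when the particle is impaired, was nearly level at 24.2 FPKM in the primary library against 25.7 in the metastatic one, a log2 ratio of 0.09 that turned to -0.08 after rescaling to the same sum. Its relative NFE2L2, the regulator of antioxidant genes, stood at 60.9 and 44.8 FPKM. NGLY1, the glycanase that NFE2L1 protein needs for its activity, stood at 44.1 and 25.5 FPKM. Of the 6 counted genes on this list 5 had a log2 ratio below 0, against 47.7% of all genes and loci, and 0 were 2-fold lower, against 9.35%, with a median of -0.49. MAFG, the other gene listed, was reported only in a locus merged with SIRT7, which stood at 12.05 and 22.95 FPKM, a log2 ratio of 0.88. Activity of these factors is set largely at the protein level, which was not measured.

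Markers of the labelled tumor type and of other cells were read in the same table. Of 11 neuroendocrine markers 7 were counted. CHGA was listed at 0 in both libraries, but it is a repeated symbol with 2 rows. Its 0 can be a failed estimate and does not show that the gene was silent. Of the 7, 2 were higher and 3 lower by at least 2-fold, against 9.22% and 9.35% of all genes and loci. The median log2 ratio of the 7 was -0.98. INSM1, SCG2 and CHGB passed the 1 FPKM floor only through the primary library, where they were higher. The count of lower markers and the median therefore rest in part on that filter. ENO2 was reported only in a locus merged with LRRC23, at 81.6 and 23.8 FPKM, a log2 ratio of -1.74. UCHL1 stood at 225 and 705 FPKM, DDC at 48.1 and 103, and SYP at 1.63 and 1.96. PCSK1 stood at 19.9 and 2.74 FPKM, INSM1 at 3.54 and 0.271, SCG2 at 2.62 and 0.340, and CHGB at 1.64 and 0.336. Leukocytes are rich in immunoproteasome, and most of their markers were near 0. Of 14 leukocyte markers 9 were under 1 FPKM in both libraries, CD68 was reported only in a locus merged with EIF4A1 and SENP3, at 869.7 and 996 FPKM, and 4 were counted, with a summed level of 6.07 FPKM in the primary library against 3.37 in the metastatic one, CD3E was listed at 0, and PTPRC stood at 0.111 and 0.0403. Of 8 fibroblast markers 5 were counted, summing to 516 and 159 FPKM, of which COL1A2 gave 474 and 149, while DCN stood at 0.370 and 2.89. Of 8 endothelial markers 2 were counted, summing to 7.29 and 2.59. The part of these cells in the proteasome values was not tested, nor was that of mouse reads, whose handling is not given in the sources used here.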

How the data were processed

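The input was a table of 62573 rows with FPKM that the authors deposited for 1 primary and 1 metastatic xenograft library. Build GRCh38, a human genome, and the tools STAR 2.7.6a, Cufflinks 2.2.1 and bcl2fastq 2.18.0.12 are listed in the submitters' processing notes, which do not say what each did. The labels give mouse as the organism, while the symbols are human. The sources used here give neither the annotation nor any filter. The table has no counts, and without a depth no counting error could be computed.

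Rows with the same label were summed. A locus of several symbols was counted for a gene only if all its other symbols named clones, antisense transcripts or short RNAs. Genes that reached 1 FPKM in either library were counted, and log2 ratios used a pseudocount of 1 FPKM without rescaling. Counts at 2-fold and medians are descriptions. Transcript length was the median over protein-coding mouse transcripts of the same symbol (GENCODE M21), found for 34 of 34 proteasome genes and for 9389 of 13811 features. Human promoter and protein sequences were not used here.

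Every counted member is named. Of the partner genes, 7 fixed ones and the 6 with the largest absolute log2 ratio make 10 in all, of which 1 is not reported here; UBB, UBQLN1 and NGLY1 were chosen after their values were seen, as were MAFG and the genes named from the interferon and marker lists. Members and lists were chosen with earlier results of these data known. The procedure was tested on simulated data. Python 3.11.15, pandas 2.3.3, numpy 2.4.6, scipy 1.17.1 and matplotlib 3.10.9 were used. Alternatives were other pseudocounts, filters, thresholds and scalings, the highest of repeated rows, and the treatment of merged loci.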

Additional observations from a re-analysis of the deposited data

How the results depend on the processing

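No paired analysis was possible because each group held 1 library, and no replicate could be left out. After rescaling to the same sum, 3 proteasome genes in place of 10 were at least 2-fold higher, and partner genes gave 2 higher and 1 lower in place of 4 and 0. Of all genes and loci, 7.24% were then higher and 12.7% lower, in place of 9.22% and 9.35%. A threshold of 1.5-fold gave 23 proteasome genes higher, and 13 partner genes higher and 4 lower. The shares of all genes and loci at 1.5-fold were 21.8% higher and 20% lower. A 4-fold threshold gave 0 of each, against 1.19% higher and 1.88% lower of all genes and loci. Without a filter, the activators' median was 0.086 in place of 0.42, because 2 activators listed at 0 entered it. The median of all proteasome genes ran from 0.64 to 0.85 over the pseudocounts, filters and scalings and with merged loci counted. Counting merged loci and a filter of 20 FPKM were chosen after seeing the data. Other class medians stayed within the interval or range of their members, a wide bound that a median of the same genes can hardly leave. With merged loci counted, the alpha ring median was 0.64 in place of 1.07, and that of the base chaperones 0.22 in place of -0.04. The PSMB10 ratio cannot be given with merged loci left out. Depth limits cannot be stated, since the table holds no counts.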
